A study of Mus musculus with 12 samples.

Results

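The genes described here are 46 lysosome and autophagy genes of the mouse, taken as a named list and matched by symbol to rows of a table of read counts for 55487 genes. Each of the 46 matched 1 Ensembl identifier. They comprise 6 lysosomal membrane proteins, 8 cathepsins, 10 other hydrolases and their activators, 4 subunits of the vacuolar proton pump, 3 transcription factors of the MiT/TFE family, 3 autophagy receptors, 5 members of the ATG8 family and 7 genes of the core autophagy machinery. The list was given by function, with earlier results of these data known.

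Lysosomes are acidic organelles that break down proteins, lipids and glycans with hydrolases, and the vacuolar proton pump (V-ATPase) keeps them acidic. Autophagy encloses cytoplasmic cargo in a double membrane, to which ATG8 proteins are attached, and receptors such as p62 (Sqstm1) link the cargo to them before the vesicle fuses with a lysosome. TFEB, TFE3 and MITF are transcription factors that bind the CLEAR motif in promoters of lysosomal genes, and mTORC1 on the lysosome keeps TFEB and TFE3 out of the nucleus in fed cells.

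RNA was sequenced from 12 libraries in 4 groups of 3. Hepa1, a mouse hepatoma line labelled wild type, was grown in ferroptotic medium or in control medium. So were mouse embryonic fibroblasts (MEFs), primary cells that the labels call Bach1 knockout. Immortalised MEFs had conditioned the medium for 48 h, either cells made to re-express Bach1, which the labels call ferroptotic, or control cells, and both media held 10% fetal bovine serum. Ferroptosis is a form of cell death driven by iron-dependent lipid peroxidation. All 4 groups received 0.1 mM 2-mercaptoethanol and 0.4 mg/mL vitamin E, stayed in the medium for 4 days, and had it replaced daily. Every MEF library, in either medium, came from cells labelled Bach1 knockout, so cell type and Bach1 genotype cannot be told apart between Hepa1 and MEFs. The labels do not say how many embryos gave the MEFs, nor that each replicate was a culture of its own, so the p-values reflect no more than the variation among these libraries, part or all of which may be technical.

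Libraries held 18582713 to 23397981 counted reads, and levels are given in CPM, in which each count is divided by the scaled size of its library. Whole-gene counts of Bach1 lay at 114 to 125 CPM in Hepa1 in ferroptotic medium, against 141 to 149 CPM in control medium, and at 70.2 to 76.0 CPM in MEFs in ferroptotic medium, against 74.4 to 83.5 CPM in control medium. Which exons the knockout removed is not given in the sources used here, so these counts do not check it. Hepa1 libraries had reads of the liver genes Alb, Afp and Trf, while Ttr, Apoa1 and Serpina1a had 0 reads in all 12 libraries. The summed level of 10 hepatocyte markers was 1623 to 1772 CPM in Hepa1 in ferroptotic medium and 489.7 to 511 CPM in control medium, and its part in the results on Hepa1 was not tested. Most of its rise was Trf, with 25145 to 27603 reads in ferroptotic medium against 7696 to 7954, and Alb, with 5964 to 6183 against 579 to 730. Fgb went the other way, with 0 to 2 reads against 5 to 7. The summed level of 10 fibroblast markers was 2706.5 to 2771 CPM in Hepa1 in ferroptotic medium and 1843.5 to 2158 CPM in control medium, and 37218 to 38705 CPM in MEFs in ferroptotic medium and 45627 to 48305 CPM in control medium. The sum was mostly collagen reads, and its genes did not move together. In MEFs Col1a1, Col1a2, Col3a1, Pdgfra and Thy1 were lower in ferroptotic medium, Dcn, Lum and Fap higher, and Pdgfrb and Twist2 overlapped. Dcn had 6296 to 6788 reads in Hepa1 in ferroptotic medium and 4984 to 6047 in control medium. In MEFs it had 267 to 318 reads in ferroptotic medium and 67 to 86 in control medium. The part of these markers in the results was not tested either. A single library, replicate 3 of Hepa1 in ferroptotic medium, stood apart by reads of fibroblast genes, with 368 reads of Col1a2 against 23 and 19 in replicates 1 and 2, and 17 reads of Thy1 against 0 and 1. Results that changed without that library are given where they occur. In bulk RNA, fewer cells of a type and less RNA per cell cannot be told apart.

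The 8-base core of the CLEAR motif, TCACGTGA, reads the same on both strands and was described in promoters of lysosomal genes. It was searched in 300-base promoters, from 250 bases before to 50 after the RefSeq gene start, of the 36 listed genes that the RefSeq table (GRCm38.p6) holds. It occurred in 6 of them, or 16.7%, against 1.12% of all 27025 genes in the table. The stretches around the matches are shown for these 6 genes because their responses are followed below, and capitals mark the motif.
Mcoln1, chr8:3500447-3500506, plus strand: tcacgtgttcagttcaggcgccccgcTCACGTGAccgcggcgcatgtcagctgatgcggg
Ctsa, chr2:164833734-164833810, plus strand: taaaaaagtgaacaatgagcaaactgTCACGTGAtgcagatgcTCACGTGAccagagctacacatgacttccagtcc
Ctsd, chr7:142387893-142387952, minus strand: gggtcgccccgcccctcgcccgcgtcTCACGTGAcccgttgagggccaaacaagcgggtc
Gla, chrX:134601167-134601255, minus strand: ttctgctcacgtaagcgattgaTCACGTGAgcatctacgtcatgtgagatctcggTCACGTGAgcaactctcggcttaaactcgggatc
Atp6v0d1, chr8:105566035-105566094, minus strand: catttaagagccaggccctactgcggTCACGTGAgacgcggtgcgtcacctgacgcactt
Atp6v1a, chr16:44139358-44139417, minus strand: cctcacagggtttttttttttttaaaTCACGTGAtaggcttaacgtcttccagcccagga

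Ctsa and Gla carried the motif at 2 places each. In Mcoln1 it began 46 bases before the gene start, in Ctsd 99 and in Atp6v1a 132. The 7-base form TCACGTG on either strand, which every 8-base match contains, occurred in 10 of the 36 genes, or 27.8%, against 4.29% of all genes, and added Lamp1, Gaa, Naglu and Atg7. The E-box CACGTG inside both forms occurred in 12 of the 36, or 33.3%, against 8.09% of all genes. The antioxidant response element core TGACNNNGC, on either strand, occurred in 8 of the 36, or 22.2%, against 14.0% of all genes. A match is a description of letters and does not show binding.

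Set against each other per kilobase of exon, the listed genes were led by different members in the 2 cell types. The length was that of all annotated exons of a gene merged, which need not be that of the transcript made, so the order depends on it. By reads alone, Ctsl with 98840 lay above Psap with 95022 in the MEF control libraries together. In MEFs in ferroptotic medium Ctsl had 69841 reads and Psap 119696. In Hepa1 the autophagy receptor gene Sqstm1 had the highest level, with 764 ± 6.36 CPM per kb in ferroptotic medium and 1340 ± 79.7 CPM per kb in control medium (SD, n = 3 each). Psap, which encodes the precursor of the saposins that help hydrolases act on sphingolipids, was the highest in MEFs, with 771 ± 11.0 CPM per kb in ferroptotic medium and 663 ± 3.84 CPM per kb in control medium (SD, n = 3 each). Below Sqstm1, Psap at 413.5 ± 10.5 CPM per kb lay above Ctsz at 255 ± 2.81 CPM per kb in Hepa1 in ferroptotic medium, whereas in control medium Psap at 290.1 ± 5.17 CPM per kb lay below Ctsz at 314.5 ± 14.5 CPM per kb (SD, n = 3 each). Below Psap in MEFs in control medium, Lamp1 at 332 ± 5.91 CPM per kb and Ctsd at 332 ± 5.40 CPM per kb did not differ beyond their spread. At the low end, Mitf stood at 0.451 ± 0.022 CPM per kb in Hepa1 in ferroptotic medium and 0.563 ± 0.11 CPM per kb in control medium, which overlap within their spread.

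**Figure D1:**
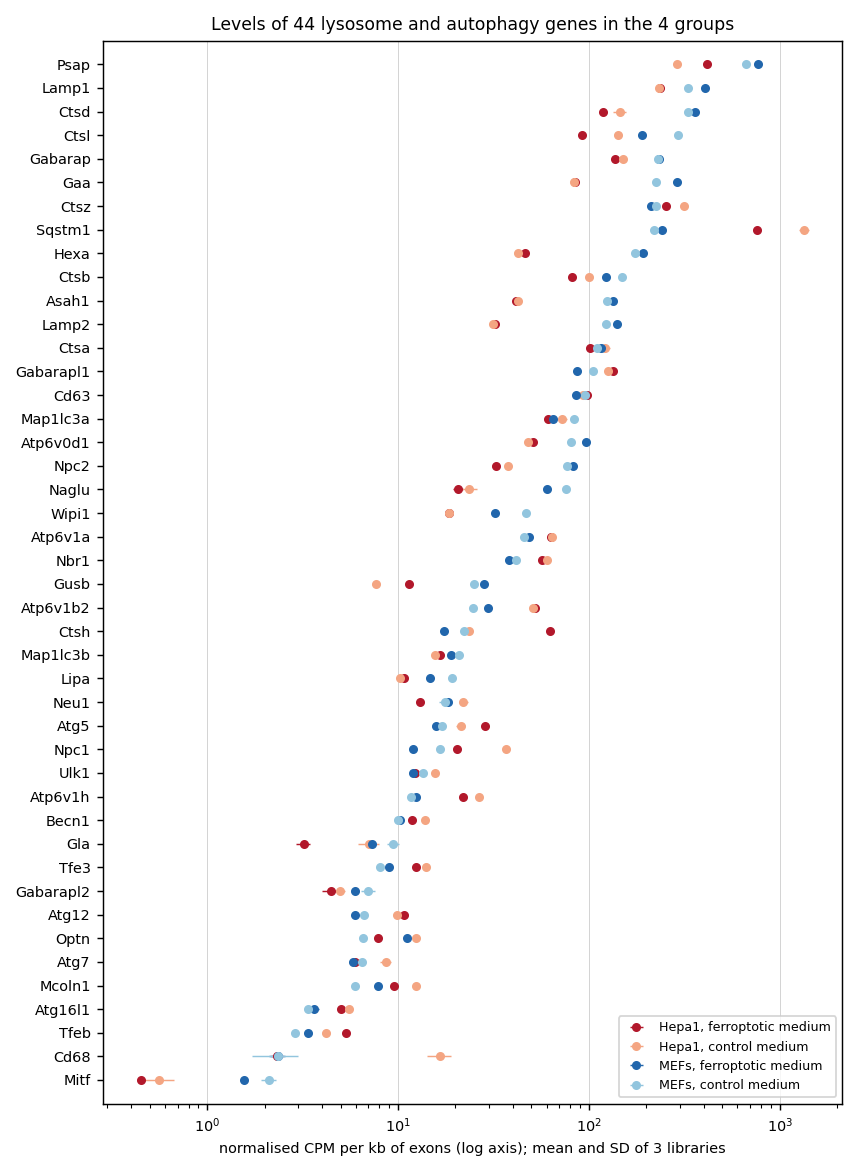
Levels of 44 lysosome and autophagy genes, ordered by their level in MEFs in control medium, on a log axis in scaled CPM per kb of exons; points are means of 3 libraries and bars the SD, and Ctsk and Ctss, with 0 reads in at least 1 group, are left out. Sqstm1 in Hepa1, at 1340 CPM per kb in control medium, lies farthest to the right, and Mitf lies farthest to the left.

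Together the 46 genes took 1.42 to 1.43% of counted reads in Hepa1 in ferroptotic medium, against 1.64 to 1.73% in control medium. Their share was 1.269 to 1.305% in MEFs in ferroptotic medium and 1.202 to 1.225% in MEFs in control medium. Neither pair of ranges overlapped. Most of the fall in Hepa1 lay in 1 gene, Sqstm1. It had 63127, 58707 and 63121 of the list's 282083, 265781 and 289111 reads in ferroptotic medium. In control medium it had 100657, 105535 and 109662 of 323374, 331591 and 335509 reads. The share is thus no measure of the list as a whole.

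In Hepa1, 44 of the 46 genes had enough reads to test between the media. By quasi-likelihood F-tests in edgeR, with Benjamini-Hochberg adjustment over all tested genes, 32 were called at an adjusted p under 0.05, where 58.1% of all 13169 tested genes were called. Of these, 9 were higher in ferroptotic medium, where 29.3% of all genes were called higher, and 23 were lower, where 28.8% of all genes were called lower. Their median log2 change was -0.15, against 0 for all genes. Regardless of sign, their median change was 0.24, against 0.22 for all genes. Most changes were small, and 3 members rose and 8 fell by at least 0.5 on the log2 scale. With no scaling beyond total counts, 14 members were called higher and 21 lower, where 4515 of all genes were higher and 3169 lower. Without Hepa1 ferroptotic replicate 3, 6 members were higher and 21 lower, where 3523 and 3457 of all genes were.

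In MEFs, 45 of the 46 genes were tested and 39 were called, where 55.0% of all 14441 tested genes were called. There, 20 were higher in ferroptotic medium, beside 27.8% of all genes, and 19 were lower, beside 27.2% of all genes. Their median log2 change was 0.05, against 0 for all genes, and 2 members rose and 2 fell by at least 0.5. Regardless of sign, their median change was 0.18, against 0.20 for all genes. The larger share of calls thus did not go with larger changes. With no scaling beyond total counts, 24 members were called higher and 14 lower, where 5211 of all genes were higher and 2957 lower.

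The responses of the 2 cell types were compared by the interaction over all 12 libraries, given as the log2 change in Hepa1 minus that in MEFs. Among 45 members tested, 35 differed, where 44.2% of all 15627 tested genes did. The response of Hepa1 was the higher of the pair for 10, beside 23.3% of all genes, and the lower for 25, beside 20.9% of all genes, with a median of -0.16 against 0.03 for all genes. Without Hepa1 ferroptotic replicate 3 these counts were 11 and 24. Regardless of sign, the median difference was 0.28 for the members, against 0.34 for all genes. Of 44 members tested in both cell types, 26 were called in both. For 15 of them the direction was the same, beside 20.2% of the 12042 genes tested in both, and for 11 it was opposite, beside 15.3% of those genes. Taken as shares of the genes called in both, these were 57.7% and 42.3% of the members, close to 57% and 43% of all 4275 such genes. Of the 11, 8 were lower in Hepa1 and higher in MEFs, and 3 were higher in Hepa1 and lower in MEFs.

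**Figure D2:**
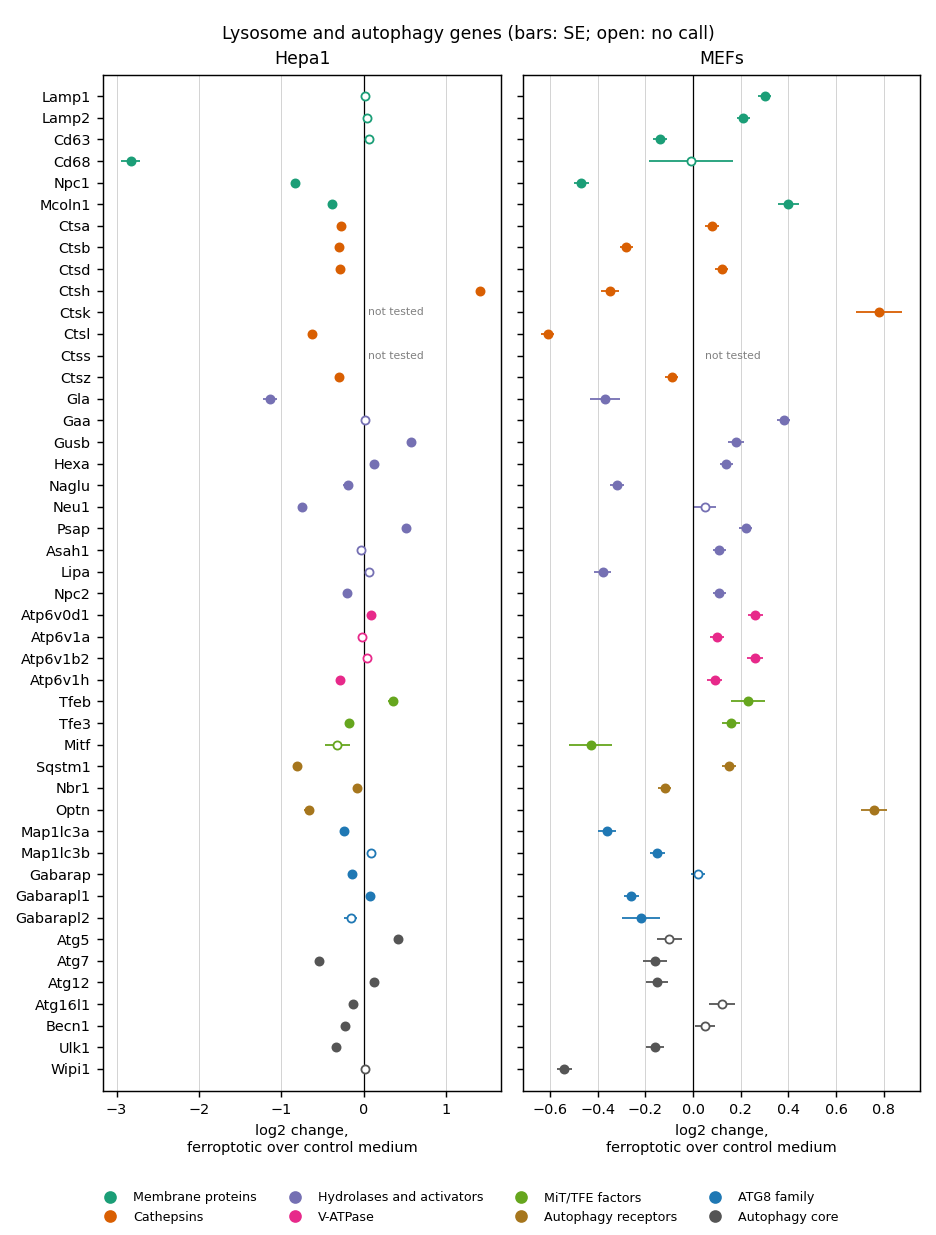
Log2 change in ferroptotic over control medium for each lysosome and autophagy gene, in Hepa1 (left) and MEFs (right), whose horizontal scales differ; bars are standard errors, filled points are called at an adjusted p under 0.05, and Ctss, and Ctsk in Hepa1, were not tested. Cd68 at -2.83 and Ctsh at 1.41 lie far from the others in Hepa1, while in MEFs the values run from -0.61 for Ctsl to 0.78 for Ctsk.

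Among the membrane proteins, Cd68 (chr11:69664213-69666153, minus strand), a heavily glycosylated LAMP family protein best known from macrophages, showed the largest fall of the list (gene coordinates here and below are GRCm38, GENCODE M21). It had 3.70, 3.77 and 3.19 CPM in Hepa1 in ferroptotic medium, against 21.7, 25.1 and 28.8 CPM in Hepa1 in control medium. The groups were far apart, and the log2 change was -2.83 ± 0.112 (SE, adjusted p = 2.79e-18 with edgeR). MEFs had 2.35, 2.24 and 2.7 CPM in ferroptotic medium, against 1.96, 3.19 and 2.20 CPM in control medium. These ranges overlapped, with a log2 change of -0.01 ± 0.177 and an adjusted p of 0.958 with edgeR. The 2 responses differed by -2.81 ± 0.232 (SE, adjusted p = 5.22e-14 with edgeR).

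Macrophage markers were looked at beside Cd68. Ptprc, Tyrobp and C1qa had 0 reads in all 12 libraries. The 12 markers together summed to 16.5 to 19.8 CPM in Hepa1 in ferroptotic medium, with 7 of 12 read at least once, against 19.6 to 21.9 CPM in control medium, with 8 of 12. In MEFs they summed to 7.70 to 9.37 CPM in ferroptotic medium, with 5 of 12 read, against 6.08 to 7.06 CPM in control medium, with 6 of 12. Single markers went both ways in Hepa1. Cd14, a lipopolysaccharide co-receptor, had 217, 203 and 192 reads in ferroptotic medium and 320, 281 and 309 in control medium, without overlap (log2 change -0.61 ± 0.0874, adjusted p = 9.26e-07 with edgeR). Csf1r, a growth factor receptor, had 46, 52 and 46 reads in ferroptotic medium and 74, 67 and 65 in control medium, also without overlap (log2 change -0.55 ± 0.163, adjusted p = 0.00501 with edgeR). Adgre1, the F4/80 gene, had 39, 44 and 35 reads in ferroptotic medium and 1, 1 and 0 in control medium, and Lyz2, a lysozyme gene, 63, 73 and 66 reads in ferroptotic medium and 32, 34 and 28 in control medium, both higher where Cd68 was lower. The part of such cells in the Cd68 result was not tested. The promoter of Cd68 is shown because the gene moved most and is 1 of 3 listed genes, with Neu1 and Psap, whose promoter holds an AP-1 motif, TGACTCA on either strand. That is 8.33% of the 36 genes, against 5.95% of all genes, and the capitals mark the 2 places where the other strand carries it.
Cd68, chr11:69666121-69666420, minus strand, GRCm38.p6: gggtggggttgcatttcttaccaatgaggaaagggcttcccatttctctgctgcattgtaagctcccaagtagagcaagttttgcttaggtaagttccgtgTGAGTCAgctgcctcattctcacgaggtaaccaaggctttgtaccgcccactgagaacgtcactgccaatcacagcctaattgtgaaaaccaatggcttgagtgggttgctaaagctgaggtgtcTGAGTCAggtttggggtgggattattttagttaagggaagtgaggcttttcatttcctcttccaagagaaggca

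Npc1 (chr18:12189692-12236400, minus strand), the transporter that moves cholesterol out of the lysosome, was lower in ferroptotic medium in both cell types. Hepa1 had 286, 274 and 282 CPM in ferroptotic medium, against 499, 489 and 522 CPM in control medium. MEFs had 115, 108 and 113.5 CPM in ferroptotic medium, against 153, 154 and 159.8 CPM in control medium. Neither pair of groups overlapped, and the log2 changes were -0.84 ± 0.0340 in Hepa1 and -0.47 ± 0.0316 in MEFs, and their difference was -0.36 ± 0.0511 (adjusted p = 7.24e-08 with edgeR). Of the 11317 exon bases of Npc1, 601 overlap those of Rmc1 and Gm15956 on the opposite strand, and how reads there were counted is not given. Npc2, the soluble protein that hands cholesterol to NPC1, changed by -0.20 ± 0.0347 in Hepa1 and by 0.11 ± 0.0285 in MEFs, and both were called.

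Mcoln1, the lysosomal calcium channel TRPML1, was called in opposite directions. It averaged 87.5 CPM in Hepa1 in ferroptotic medium and 114 CPM in control medium, a log2 change of -0.39 ± 0.0416, while MEFs changed by 0.40 ± 0.0450, from which Hepa1 differed by -0.78 ± 0.0625 (SE, adjusted p = 1.83e-14 with edgeR). Lamp1 and Lamp2, the most abundant glycoproteins of the lysosomal membrane, rose in MEFs, by 0.30 ± 0.0275 and 0.21 ± 0.0270 on the log2 scale. Their changes in Hepa1 were 0.02 ± 0.0312 and 0.04 ± 0.0330 and were not called, and both responses differed from those of MEFs. Lamp2 was called in Hepa1 too with no scaling beyond total counts, at 0.09 (adjusted p 0.0264). Cd63, a tetraspanin of late endosomes and exosomes, fell by 0.14 on the log2 scale in MEFs (SE 0.0293) and had a change of 0.07 ± 0.0366 in Hepa1 that was not called (adjusted p = 0.0820 with edgeR). Without Hepa1 control replicate 3, the rise of Cd63 in Hepa1 was called, at 0.11 with an adjusted p of 0.00898, as it was with no scaling beyond total counts, at 0.12 (adjusted p 0.00467).

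All 6 tested cathepsins were called in Hepa1, 1 higher and 5 lower, where 29.3% and 28.8% of all genes were. All 7 tested in MEFs were called, 3 higher and 4 lower, where 27.8% and 27.2% of all genes were. Their median log2 changes were -0.30 in Hepa1 and -0.09 in MEFs. Cathepsins are the lysosomal proteases. Ctsh (chr9:90054152-90076089, plus strand), an aminopeptidase among them, rose in Hepa1 against the fall of the others. It had 337, 352 and 338 CPM in Hepa1 in ferroptotic medium, against 134, 124 and 128 CPM in control medium. In MEFs it had 66.3, 63.1 and 65.8 CPM in ferroptotic medium, against 80.0, 82.5 and 85.8 CPM in control medium. The groups did not overlap in either cell type and went in opposite directions, with log2 changes of 1.41 ± 0.0366 in Hepa1 and -0.35 ± 0.0373 in MEFs. The difference of 1.76 ± 0.0544 was the highest called in the list (SE, adjusted p = 6.99e-29 with edgeR).

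Ctsl (chr13:64359337-64370890, minus strand), an endopeptidase, fell by about the same amount in both cell types. Hepa1 had 731, 724.5 and 715 CPM in ferroptotic medium, against 1063.5, 1141 and 1145 CPM in control medium, and the groups did not overlap. MEFs had 1017.5, 1008 and 1035.5 CPM in ferroptotic medium, against 1499, 1565.5 and 1620.3 CPM in control medium, again without overlap. The log2 changes were -0.63 ± 0.0327 and -0.61 ± 0.0285, and their difference of -0.01 ± 0.0524 was not called (adjusted p = 0.943 with edgeR). Of the 6489 exon bases of Ctsl, 1742 overlap Gm47123 on the opposite strand and 395 overlap Gm49230 on the same strand. How reads there were counted is not given.

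Ctsk (chr3:95499256-95509362, plus strand), the collagen-degrading cathepsin of osteoclasts, was all but confined to MEFs among these libraries. It had 10.1, 9.95 and 12.1 CPM in MEFs in ferroptotic medium, against 6.37, 5.97 and 6.40 CPM in control medium. The groups did not overlap, and the log2 change was 0.78 ± 0.0975 (SE, adjusted p = 1.02e-09 with edgeR). Hepa1 had 1, 1 and 2 reads of it in ferroptotic medium and 0 reads in each control library, too few to test, and in control medium the gene was at least 119.9-fold lower in Hepa1 than in MEFs, taking the floor of 3 counts over the group of 3 libraries. A set of 6 osteoclast markers summed to 0.180 to 0.541 CPM in MEFs in ferroptotic medium, with 4 of 6 read, and to 0.144 to 0.593 CPM in control medium, with 3 of 6. Ctss, a cathepsin of antigen-presenting cells, had 0 reads in all 12 libraries, which allows up to 0.128 to 0.161 CPM by a floor of 3 counts.

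Of the other cathepsins, Ctsa, Ctsd and Ctsz fell in Hepa1 by 0.28, 0.29 and 0.30 on the log2 scale, with standard errors of 0.0348, 0.0402 and 0.0339. Ctsb fell by 0.30 in Hepa1 and by 0.28 in MEFs, and these responses did not differ detectably, at -0.02 ± 0.0492 (adjusted p = 0.836 with edgeR). Ctsd, an aspartic protease, rose in MEFs by 0.12 ± 0.0276, so that its responses differed by -0.41 ± 0.0540. Ctsa, the carboxypeptidase that protects neuraminidase, had a change of 0.08 ± 0.0303 in MEFs with an adjusted p of 0.0283 with edgeR. That call was lost without MEF control replicate 1 (0.05 with adjusted p 0.212) or 2 (0.08 with adjusted p 0.0597) and without MEF ferroptotic replicate 1 (0.06 with adjusted p 0.192) or 3 (0.07 with adjusted p 0.121). In DESeq2 the call of Ctsa in MEFs was lost too (0.07 with adjusted p 0.107). Ctsz changed by -0.09 ± 0.0281 in MEFs, and with no scaling beyond total counts by -0.02 with an adjusted p of 0.646.

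The hydrolases and their activators had 3 members higher and 4 lower among 10 in Hepa1, where 29.3% and 28.8% of all genes were, and 6 higher and 3 lower among 10 in MEFs, where 27.8% and 27.2% of all genes were. Their median log2 changes were -0.01 in Hepa1 and 0.11 in MEFs. Gla (chrX:134588149-134601125, minus strand), the alpha-galactosidase that is deficient in Fabry disease, fell most of them in Hepa1. It had 14.0, 12.3 and 11.8 CPM in Hepa1 in ferroptotic medium, against 23.9, 30.2 and 29.7 CPM in control medium. The MEF libraries had 18.8, 20.3 and 20 CPM in ferroptotic medium, against 24.9, 27.5 and 23.9 CPM in control medium. Neither pair overlapped, and the log2 changes of -1.14 ± 0.0859 and -0.37 ± 0.0614 differed by -0.77 ± 0.11 (SE, adjusted p = 1.10e-07 with edgeR).

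Neu1 (chr17:34931253-34935953, plus strand), the lysosomal sialidase that Ctsa protects, had 57.8, 60.7 and 59.2 CPM in Hepa1 in ferroptotic medium, against 95.7, 96.9 and 105.5 CPM in control medium. In MEFs it had 54.9, 54.8 and 58.6 CPM in ferroptotic medium, against 53.1, 51.0 and 59.2 CPM in control medium. The groups were apart in Hepa1, at -0.75 ± 0.0455, and overlapped in MEFs, at 0.05 ± 0.0449 with an adjusted p of 0.399 with edgeR (0.11 with adjusted p 0.0269 without scaling beyond total counts), and the responses differed by -0.79 ± 0.0679 (adjusted p = 1.96e-13).

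Gusb (chr5:129989011-130003049, minus strand), the beta-glucuronidase, was higher in ferroptotic medium in both cell types. Hepa1 had 64.5, 62.3 and 62.5 CPM in ferroptotic medium, against 44.8, 40.9 and 40.9 CPM in control medium. MEFs had 105, 105.6 and 108 CPM in ferroptotic medium, against 90.7, 96.2 and 94.2 CPM in control medium. Neither pair overlapped, and the rise was 0.58 ± 0.0497 in Hepa1 and 0.18 ± 0.0332 in MEFs, a difference of 0.40 ± 0.0600 (SE, adjusted p = 2.47e-07 with edgeR).

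Psap (chr10:60277627-60302597, plus strand) rose in both cell types as well. Hepa1 had 1358, 1372 and 1393 CPM in ferroptotic medium, against 974, 942 and 974 CPM in control medium. MEFs had 1761, 1722 and 1764 CPM in ferroptotic medium, against 1507, 1502 and 1494 CPM in control medium. Every ferroptotic library lay above every control library of its cell type, with log2 changes of 0.51 ± 0.0301 and 0.22 ± 0.0268 and a difference of 0.29 ± 0.05 (SE, adjusted p = 3.26e-06 with edgeR).

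Among the remaining hydrolases, Gaa, the glycogen-degrading alpha-glucosidase of Pompe disease, rose by 0.38 ± 0.0277 in MEFs and had a change of 0.01 ± 0.0353 in Hepa1 that was not called. Lipa, which hydrolyses cholesteryl esters, fell by 0.38 on the log2 scale in MEFs (SE 0.0342) and had a change of 0.07 ± 0.0434 in Hepa1 that was not called, though it was without Hepa1 control replicate 2 (0.10 with adjusted p 0.0334) and with no scaling beyond total counts (0.12 with adjusted p 0.0196). Naglu, which degrades heparan sulfate, fell by 0.32 in MEFs and by 0.19 in Hepa1, where the call was lost without Hepa1 ferroptotic replicate 3 (-0.15 with adjusted p 0.0512) or control replicate 3 (-0.12 with adjusted p 0.0659). The difference between its responses was not called. With edgeR it was called without Hepa1 ferroptotic replicate 3 (0.17 with adjusted p 0.0406) or control replicate 3 (0.21 with adjusted p 0.003). With no count filter it was called too (0.15 with adjusted p 0.0499). Hexa, a subunit of the enzyme that cleaves GM2 ganglioside, rose by 0.14 in MEFs and by 0.12 in Hepa1, a call lost without Hepa1 control replicate 1 (0.10 with adjusted p 0.0603) or ferroptotic replicate 1 (0.11 with adjusted p 0.0678). Asah1, the acid ceramidase, rose by 0.11 ± 0.0281 in MEFs, and its change in Hepa1 was -0.03 ± 0.0360 and not called.

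**Figure D3:**
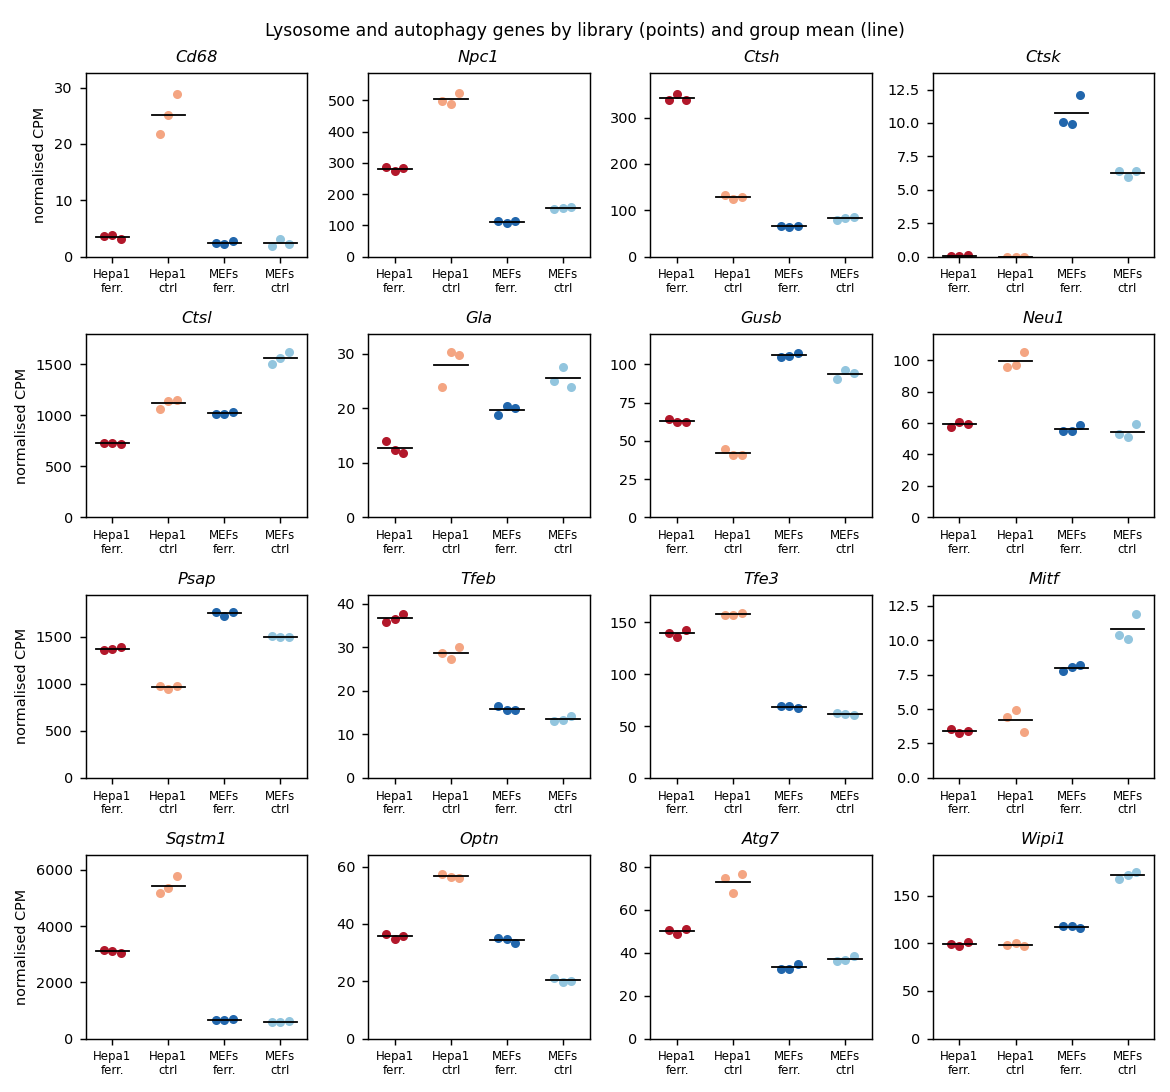
Scaled CPM in each of 12 libraries (points) and the group mean (line) for 16 lysosome and autophagy genes; libraries were scaled within each cell type, so heights compare media and not cell types, and each panel has its own axis from 0. Cd68 at 3.19 to 3.77 CPM in Hepa1 in ferroptotic medium lies below 21.7 to 28.8 CPM in control medium, and Optn is lower in ferroptotic medium in Hepa1 and higher in MEFs.

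The V-ATPase pumps protons into the lysosome, with a V1 sector that splits ATP and a V0 sector in the membrane. All 4 listed subunits were called higher in MEFs in ferroptotic medium, where 27.8% of all genes were. Atp6v0d1 and Atp6v1b2 rose by 0.26 each (SE 0.0319 and 0.0320), Atp6v1a, the catalytic subunit, by 0.10 ± 0.0287 and Atp6v1h by 0.09 ± 0.0329. In Hepa1, Atp6v1h fell by 0.29 on the log2 scale (SE 0.0348), Atp6v0d1 was called at 0.09 ± 0.0389 (adjusted p = 0.0397 with edgeR), and Atp6v1a at -0.02 and Atp6v1b2 at 0.04 were not called, though Atp6v1b2 was with no scaling beyond total counts (0.09 with adjusted p 0.0234). For all 4 the response of Hepa1 was called lower than that of MEFs, by -0.16 for Atp6v0d1, -0.12 for Atp6v1a, -0.22 for Atp6v1b2 and -0.38 for Atp6v1h. Of all genes, 20.9% were called lower in this way.

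Several of these small calls rested on single libraries or on the setting. Atp6v0d1 lost its call in Hepa1 without control replicate 2 (0.08 with adjusted p 0.0686) or 3 (0.08 with adjusted p 0.0924) and without ferroptotic replicate 1 (0.09 with adjusted p 0.126), 2 (0.09 with adjusted p 0.135) or 3 (0.11 with adjusted p 0.0575). It was also lost in DESeq2 (0.09 with adjusted p 0.121) and with no count filter (0.09 with adjusted p 0.108). Atp6v1h lost its call in MEFs without control replicate 2 (0.09 with adjusted p 0.0585) or 3 (0.08 with adjusted p 0.0506) or ferroptotic replicate 3 (0.08 with adjusted p 0.0763), and in DESeq2 (adjusted p = 0.145). The difference for Atp6v1a was lost without Hepa1 ferroptotic replicate 3 (-0.10 with adjusted p 0.0982), MEF control replicate 2 (-0.12 with adjusted p 0.0637) or 3 (-0.12 with adjusted p 0.0629), or MEF ferroptotic replicate 1 (-0.10 with adjusted p 0.109).

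A further 15 genes of the proton pump and its accessory proteins, listed by function, were read beside the 4. They were listed with earlier results of these data known, and the counts below include the 4, so they are no independent check. Of the 19 in all, 17 were tested in Hepa1, with 2 called higher (11.8%) and 10 lower (58.8%) and a median log2 change of -0.18, where 29.3% and 28.8% of all genes were called. In MEFs 18 were tested, with 12 called higher (66.7%) and 1 lower (5.6%) and a median of 0.15, where 27.8% and 27.2% of all genes were called. The interaction called 15 of 18 lower in Hepa1 and 0 higher with edgeR, where 20.9% and 23.3% of all genes were called. At an unadjusted p under 0.05, and by DESeq2 and limma-voom, 0 of the 18 were higher as well, and without Hepa1 ferroptotic replicate 3, 14 were lower. With no scaling beyond total counts, 4 were called higher and 9 lower in Hepa1, 15 higher and 0 lower in MEFs, and the interaction still gave 15 lower and 0 higher. Over all genes that setting called 4515 higher and 3169 lower in Hepa1, and 5211 higher and 2957 lower in MEFs. For the interaction it called 3420 higher and 3503 lower. The accessory protein gene Atp6ap1 differed most among those called, with -0.30 ± 0.0335 in Hepa1, 0.50 ± 0.0285 in MEFs and a difference of -0.80 ± 0.0470. Atp6v1g1 fell in both cell types, by 0.48 in Hepa1 and by 0.15 in MEFs, where the call was lost without MEF control replicate 3 (-0.12 with adjusted p 0.0678), in DESeq2 (-0.16 with adjusted p 0.0528) and with no scaling beyond total counts (-0.08 with adjusted p 0.173). Atp6v0d2, a V0 subunit best known from osteoclasts, had 26, 45 and 27 reads in MEFs in ferroptotic medium, 3, 2 and 3 reads in MEFs in control medium and 0 reads in all 6 Hepa1 libraries, and lay under the 1 CPM set for naming such genes, so it was chosen after its values were seen.

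**Figure D4:**
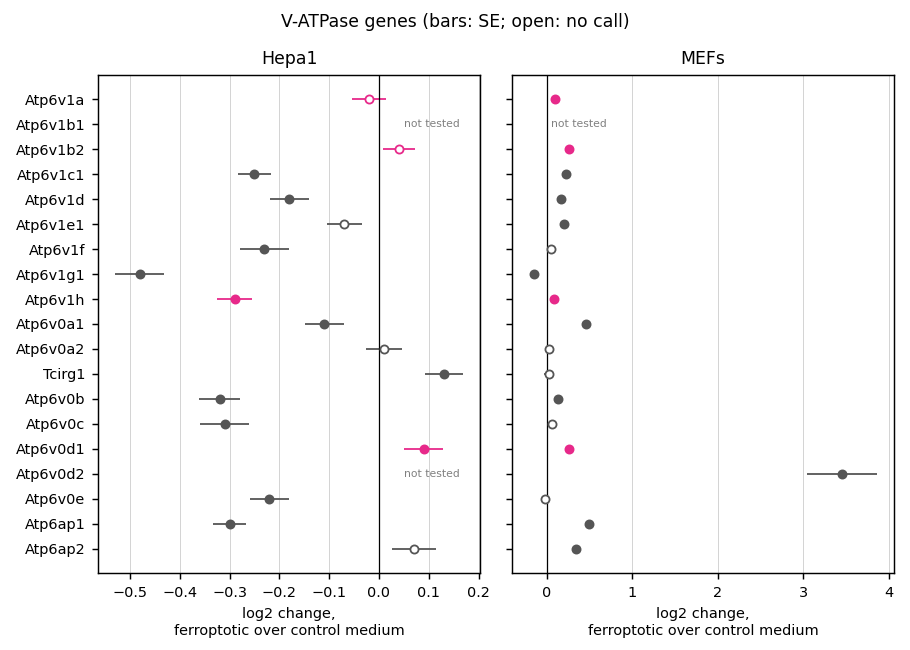
Log2 change in ferroptotic over control medium for 19 V-ATPase genes, with the 4 listed subunits in pink, in Hepa1 (left) and MEFs (right), whose horizontal scales differ; bars are standard errors and filled points are called at an adjusted p under 0.05. Most filled points lie left of 0 in Hepa1 and right of 0 in MEFs, where Atp6v0d2 stands alone at 3.45.

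The MiT/TFE transcripts moved little and not together. Tfeb (chr17:47737030-47792419, plus strand) had 35.8, 36.5 and 37.8 CPM in Hepa1 in ferroptotic medium, against 28.8, 27.4 and 30.1 CPM in control medium. The values in MEFs were 16.6, 15.5 and 15.6 CPM in ferroptotic medium, against 13.0, 13.4 and 14.3 CPM in control medium. Neither pair overlapped, with rises of 0.35 ± 0.0573 in Hepa1 and 0.23 ± 0.0721 in MEFs whose difference of 0.13 ± 0.0916 was not called (adjusted p = 0.287 with edgeR). In MEFs the call of Tfeb was lost in DESeq2 (0.22 with adjusted p 0.0787).

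Tfe3 (chrX:7762560-7775202, plus strand), the closest relative of Tfeb in function, had 139.9, 136 and 143 CPM in Hepa1 in ferroptotic medium, against 157.5, 157 and 159 CPM in control medium. In MEFs it had 68.9, 69.4 and 67.7 CPM in ferroptotic medium, against 62.5, 62.0 and 60.3 CPM in control medium. The groups were apart in both cell types and in opposite directions, at -0.18 ± 0.0358 in Hepa1 and 0.16 ± 0.0379 in MEFs, and the responses differed by -0.33 ± 0.0538 (SE, adjusted p = 1.50e-06 with edgeR). Mitf (chr6:97807052-98021349, plus strand), the family member best known from pigment cells and osteoclasts, had 3.55, 3.24 and 3.38 CPM in Hepa1 in ferroptotic medium, against 4.42, 4.93 and 3.32 CPM in control medium. MEFs had 7.74, 8.03 and 8.20 CPM in ferroptotic medium, against 10.4, 10.1 and 11.9 CPM in control medium. The fall was called in MEFs, at -0.43 ± 0.0903, while in Hepa1 the groups overlapped and -0.32 ± 0.154 was not called (adjusted p = 0.0778 with edgeR). Without Hepa1 control replicate 3 the value in Hepa1 was -0.47 and was called (adjusted p = 0.0129).

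The 6 genes with the 8-base CLEAR core in the promoters shown above did not share a direction within either cell type. In Hepa1, 1 was called higher and 4 lower, beside 29.3% and 28.8% of all genes, with values from -1.14 for Gla to 0.09 for Atp6v0d1. In MEFs, 5 were called higher and 1 lower, beside 27.8% and 27.2% of all genes, with values from -0.37 for Gla to 0.40 for Mcoln1. The interaction called the response of Hepa1 lower for all 6, from -0.78 for Mcoln1 to -0.12 for Atp6v1a, where it did so for 25 of the 45 listed genes tested and 20.9% of all genes, and the call of Atp6v1a was lost without single libraries as given above. Among 126 further genes of the pathway with a promoter in the table, 9 had the motif (7.14%). The interaction called 3 of these 9 higher and 6 lower, where 23.3% and 20.9% of all genes were.

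The autophagy receptors included a pair, Sqstm1 and Optn, that moved in opposite directions in the cell types. Sqstm1 (chr11:50199366-50210827, minus strand) had 3153, 3114 and 3051 CPM in Hepa1 in ferroptotic medium, against 5174, 5368 and 5784 CPM in control medium. In MEFs it had 672.5, 644 and 693 CPM in ferroptotic medium, against 597, 595 and 622 CPM in control medium. The groups did not overlap in either cell type, and the log2 changes were -0.81 ± 0.0336 in Hepa1 and 0.15 ± 0.0290 in MEFs, a difference of -0.96 ± 0.0573 (SE, adjusted p = 1.76e-18 with edgeR). Of the 3356 exon bases of Sqstm1, 580 overlap Mrnip on the opposite strand.

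Optn (chr2:5020642-5064051, minus strand), the receptor optineurin, which acts in the removal of mitochondria and bacteria, had 36.4, 34.7 and 35.8 CPM in Hepa1 in ferroptotic medium, against 57.4, 56.3 and 56.2 CPM in control medium. The MEF libraries had 35.2, 34.7 and 33.4 CPM in ferroptotic medium, against 21.2, 19.8 and 20.2 CPM in control medium. Its groups were apart and in opposite directions, at -0.67 ± 0.0495 in Hepa1 and 0.76 ± 0.0551 in MEFs, and the responses differed by -1.42 ± 0.0733 (SE, adjusted p = 9.17e-21 with edgeR). Nbr1, a receptor related to p62, changed by -0.08 ± 0.0312 in Hepa1 and by -0.12 ± 0.0279 in MEFs. Its call in Hepa1 was lost without ferroptotic replicate 1 (-0.08 with adjusted p 0.0857), 2 (-0.07 with adjusted p 0.128) or 3 (-0.09 with adjusted p 0.0689), and with no scaling beyond total counts it was lost in Hepa1 (-0.03 with adjusted p 0.365) and in MEFs (-0.05 with adjusted p 0.105).

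The ATG8 family, whose proteins are attached to lipid on the forming autophagosome, has 5 listed members. With edgeR 1 was called higher and 2 lower in Hepa1, where 29.3% and 28.8% of all genes were. In MEFs 0 members were called higher and 4 lower with edgeR, where 27.8% and 27.2% of all genes were. In MEFs 0 were higher at an unadjusted p under 0.05 and by DESeq2 and limma-voom, but with no scaling beyond total counts 1 was higher, Gabarap at 0.09 (adjusted p 0.00537). Map1lc3a fell in both cell types, by 0.24 on the log2 scale in Hepa1 and by 0.36 in MEFs (SE 0.0450 and 0.0370). Map1lc3b, the usual LC3 marker of autophagosomes, fell in MEFs by 0.15 (SE 0.0311), and its change of 0.09 ± 0.0383 in Hepa1 was just short of a call (adjusted p = 0.0511 with edgeR), which it passed without Hepa1 control replicate 2 (0.10 with adjusted p 0.0172) or ferroptotic replicate 1 (0.11 with adjusted p 0.0385) and with no scaling beyond total counts (0.13 with adjusted p 0.00346). Gabarap fell in Hepa1 by 0.14 (SE 0.0334) and had a change of 0.02 ± 0.0285 in MEFs that was not called. Gabarapl1 fell in MEFs by 0.26 (SE 0.0311), with a difference of 0.35 ± 0.0512 between the responses.

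The rise of Gabarapl1 in Hepa1 (0.08 ± 0.0338, adjusted p = 0.0453 with edgeR) did not outlast small changes. It was lost without Hepa1 control replicate 1 (0.06 with adjusted p 0.183) or 2 (0.07 with adjusted p 0.0539), without ferroptotic replicate 1 (0.08 with adjusted p 0.123), 2 (0.09 with adjusted p 0.0789) or 3 (0.07 with adjusted p 0.183), and in DESeq2 (0.07 with adjusted p 0.0788). Gabarapl2 changed by -0.16 ± 0.0848 in Hepa1, which was not called, and by -0.22 ± 0.0798 in MEFs. Its call in MEFs was lost without control replicate 1 (-0.15 with adjusted p 0.156) or ferroptotic replicate 1 (-0.19 with adjusted p 0.0776) or 3 (-0.21 with adjusted p 0.0517), in DESeq2 (-0.23 with adjusted p 0.108) and with no scaling beyond total counts (-0.15 with adjusted p 0.11).

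Of the 7 core autophagy genes, 2 were called higher and 4 lower in Hepa1 with edgeR, where 29.3% and 28.8% of all genes were. In MEFs 0 of the 7 were called higher and 4 lower with edgeR, where 27.8% and 27.2% of all genes were. In MEFs 1 was higher at an unadjusted p under 0.05, DESeq2 and limma-voom called 0 higher, and with no scaling beyond total counts 2 were higher and 2 lower. Atg7 (chr6:114643097-114860614, plus strand), the enzyme that activates ATG8 proteins and ATG12 for conjugation, had 50.7, 48.7 and 51.0 CPM in Hepa1 in ferroptotic medium, against 74.9, 67.6 and 76.9 CPM in control medium. In MEFs it had 32.5, 32.6 and 34.9 CPM in ferroptotic medium, against 36.2, 36.7 and 38.6 CPM in control medium. Neither pair overlapped, and the log2 changes of -0.54 ± 0.0502 and -0.16 ± 0.0495 differed by -0.39 ± 0.0725 (SE, adjusted p = 1.91e-05 with edgeR). With no scaling beyond total counts the change in MEFs was -0.09 and was not called (adjusted p = 0.143).

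Wipi1 (chr11:109573331-109611967, minus strand), which binds phosphoinositide on the forming membrane, had 118.6, 118 and 116 CPM in MEFs in ferroptotic medium, against 167, 172 and 174.5 CPM in control medium. In Hepa1 it had 98.9, 97.7 and 101.0 CPM in ferroptotic medium, against 97.9, 100.3 and 97.5 CPM in control medium. The groups were apart in MEFs, at -0.54 ± 0.0304, and overlapped in Hepa1, at 0.01 ± 0.0390 with an adjusted p of 0.857 with edgeR. The responses differed by 0.55 ± 0.0515 (adjusted p = 1.81e-12 with edgeR).

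Atg5, the partner that ATG12 is joined to, rose in Hepa1 by 0.42 ± 0.0462, and its change in MEFs was -0.10 ± 0.0519 and not called (adjusted p = 0.0865 with edgeR), though it was without MEF ferroptotic replicate 3 (-0.15 with adjusted p 0.0268). Ulk1, the kinase that starts autophagy, fell in Hepa1 by 0.34 and in MEFs by 0.16 (SE 0.0386 and 0.0377). Becn1, the Beclin 1 gene of the lipid kinase complex, fell by 0.23 in Hepa1 (SE 0.0412) and had a change of 0.05 ± 0.0401 in MEFs that was called only with no scaling beyond total counts (0.12 with adjusted p 0.0138), and 3104 of its 7065 exon bases overlap Cntd1 on the opposite strand. Atg12 was called at 0.13 ± 0.0420 in Hepa1 and at -0.15 ± 0.0461 in MEFs. The call in Hepa1 was lost without control replicate 1 (0.11 with adjusted p 0.0536) or ferroptotic replicate 3 (0.10 with adjusted p 0.100), and that in MEFs with no scaling beyond total counts (-0.08 with adjusted p 0.132). Atg16l1, which places the conjugation on the membrane, was called at -0.13 ± 0.0454 in Hepa1. That call was lost without ferroptotic replicate 1 (-0.10 with adjusted p 0.111), in DESeq2 (-0.13 with adjusted p 0.0526) and with no scaling beyond total counts (-0.08 with adjusted p 0.121). In MEFs the change of Atg16l1 was 0.12 ± 0.0544 and not called. It was called without MEF ferroptotic replicate 2 (0.15 with adjusted p 0.0242) and with no scaling beyond total counts (0.19 with adjusted p 0.00335).

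**Figure D5:**
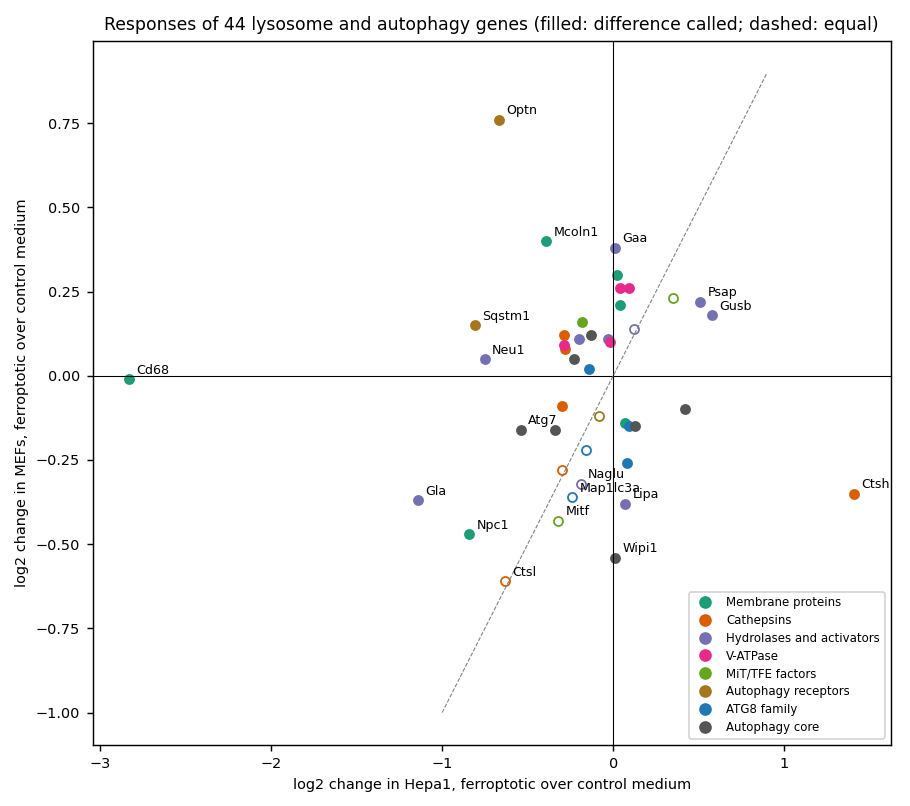
Log2 change in ferroptotic over control medium in Hepa1 (horizontal) and in MEFs (vertical) for 44 lysosome and autophagy genes tested in both, coloured by role; filled points have a called difference between the cell types, the dashed line marks equal change, and the axes have different scales. Ctsl lies on the line, Optn, Mcoln1 and Sqstm1 lie at the upper left, and Cd68 and Ctsh lie far out on the horizontal axis.

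The cell types were also compared within control medium. Of 45 listed genes tested, 44 were called between Hepa1 and MEFs in control medium, where 86.6% of all genes were called. Of these 22 were higher in Hepa1, beside 40.7% of all genes, and 22 were lower, beside 46.0% of all genes, with a median of -0.03, or 0.02 without Ctsk, against -0.08 for all genes. With no scaling beyond total counts 25 were higher and 15 lower, and the median of all genes moved to 0.486. The receptors were all higher in Hepa1, with Sqstm1 at 2.62 ± 0.0427, Optn at 0.92 ± 0.0528 and Nbr1 at 0.52 ± 0.0330. Hydrolases were lower in Hepa1 for 9 of 10, with Hexa at -2.04 ± 0.0372 and Gusb at -1.70 ± 0.0436, and Neu1 was the exception at 0.32 ± 0.0471. Lamp2 was lower at -1.96 ± 0.0357, Cd68 higher at 2.80 ± 0.124 and Npc1 higher at 1.14 ± 0.0355. Ctsh stood at 0.08 ± 0.0390, a call (adjusted p = 0.0446 with edgeR) that was lost without Hepa1 control replicate 1 (0.06 with adjusted p 0.186) or 3 (0.09 with adjusted p 0.0512) or MEF control replicate 1 (0.06 with adjusted p 0.178) or 2 (0.09 with adjusted p 0.0722). In DESeq2 the call of Ctsh was lost as well (0.06 with adjusted p 0.169). Ctsl was lower in Hepa1 at -1.04 ± 0.0372.

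Outside the 46, 154 genes of the same pathways were listed by function in 5 groups. In Hepa1, 145 were tested, with 34 called higher (23.4%) and 69 lower (47.6%), where 29.3% and 28.8% of all genes were. In MEFs 150 were tested, with 59 higher (39.3%) and 49 lower (32.7%), where 27.8% and 27.2% of all genes were. Their median log2 changes were -0.09 in Hepa1 and 0.03 in MEFs, against 0 for all genes in each. Without scaling beyond total counts 41 were higher and 56 lower in Hepa1, and 78 higher and 32 lower in MEFs. In that setting 4515 of all genes were higher and 3169 lower in Hepa1, and 5211 higher and 2957 lower in MEFs. The interaction called 30 higher (19.7%) and 67 lower (44.1%) in Hepa1 among 152 tested, where 23.3% and 20.9% of all genes were, with a median of -0.12 against 0.03 for all genes.

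Further autophagy genes were called lower more often than higher in both cell types, with 7 higher (14.6%) and 27 lower (56.2%) of 48 tested in Hepa1, where 29.3% and 28.8% of all genes were, and 8 higher (17.0%) and 23 lower (48.9%) of 47 in MEFs, where 27.8% and 27.2% of all genes were. Their median log2 changes were -0.12 in Hepa1 and -0.09 in MEFs. In MEFs the counts within the list depended on the scaling, and without it 14 were higher and 13 lower. The calls over all genes moved as well, to 5211 higher and 2957 lower. Calcoco1, an autophagy receptor, fell in Hepa1 by 0.68 (SE 0.0328). Rb1cc1, the FIP200 scaffold of the ULK1 complex, and Retreg1, a receptor for the endoplasmic reticulum, fell in MEFs by 0.73 and 0.67 (SE 0.0336 and 0.0537). Trp53inp1, a p53-induced gene, rose in MEFs by 1.39 ± 0.0309. Atg13, another part of the ULK1 complex, was called at 0.20 ± 0.0428 in Hepa1 and -0.46 ± 0.0398 in MEFs.

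A list of further hydrolase genes also held Hgsnat, the activator gene Gm2a, and Cstb and Cst3, which encode inhibitors of cathepsins. Of 30 tested in Hepa1, 13 were higher (43.3%) and 10 lower (33.3%), where 29.3% and 28.8% of all genes were. In MEFs 14 were higher (41.2%) and 11 lower (32.4%) of 34, where 27.8% and 27.2% of all genes were, and the median log2 changes were 0.02 in Hepa1 and 0.03 in MEFs. Man2b1, the lysosomal alpha-mannosidase, and Arsb, an arylsulfatase, rose in both, Man2b1 by 0.73 ± 0.0510 in Hepa1 and 0.65 ± 0.0308 in MEFs. Hgsnat, the acetyltransferase of heparan sulfate breakdown, fell by 1.44 in Hepa1 (SE 0.0439), and the lysosomal phospholipase gene Pla2g15 fell by 0.87 in MEFs (SE 0.0315). Acp5, an acid phosphatase best known from osteoclasts, rose in MEFs by 1.65 ± 0.253 at a mean of 1.25 CPM. Among membrane and sorting genes, 6 were higher (26.1%) and 9 lower (39.1%) of 23 in Hepa1, and 8 higher (34.8%) and 7 lower (30.4%) of 23 in MEFs, or 12 and 5 without scaling beyond total counts. The shares of all genes are those just given, and the median log2 changes were -0.04 in Hepa1 and 0.01 in MEFs. Igf2r, the large mannose 6-phosphate receptor, rose in Hepa1 by 0.93 ± 0.11. Clcn7, the lysosomal chloride exchanger, was called at -0.49 ± 0.0381 in Hepa1 and 0.29 ± 0.0334 in MEFs.

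Regulators of the lysosome and of mTORC1 had 7 called higher (22.6%) and 14 lower (45.2%) of 31 tested in Hepa1, where 29.3% and 28.8% of all genes were. In MEFs 21 were higher (65.6%) and 7 lower (21.9%) of 32, where 27.8% and 27.2% of all genes were, and the median log2 changes were -0.10 in Hepa1 and 0.20 in MEFs. Without scaling beyond total counts these were 10 higher and 11 lower in Hepa1, and 23 higher and 4 lower in MEFs. The counts of all genes in that setting are given above. The sestrins, stress-induced inhibitors of mTORC1, rose in Hepa1, with Sesn1 at 1.32 ± 0.0524, Sesn3 at 0.70 ± 0.0373 and Sesn2 at 0.55 ± 0.0339. Sesn2 rose in MEFs by 1.10 ± 0.0406, as did Ddit4, another mTORC1 inhibitor, by 1.15 ± 0.0480. Sesn3 was higher in MEFs too, with 7398 to 7604 reads in ferroptotic medium against 4302 to 4621 in control medium. For Sesn1 the scaled values of the media overlapped in MEFs. Ppargc1a, the coactivator PGC-1alpha, rose in MEFs by 2.94 ± 0.152 at a mean of 4.88 CPM. Gpnmb, a lysosomal membrane glycoprotein, was called at -0.81 ± 0.0349 in Hepa1 and 0.85 ± 0.0692 in MEFs. Fnip2, a folliculin partner, fell in Hepa1 by 0.79 (SE 0.0544). In MEFs Fnip2 was higher, with 715 to 788 reads in ferroptotic medium against 485 to 593 in control medium. Tfec, the MiT/TFE relative left out of the 46, fell in Hepa1 by 0.53 (SE 0.0655).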

How the data were processed

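The authors deposited raw read counts per gene, as 1 table of the series and 1 file per sample, and 0 values differed between the 2 forms. GRCm38 (mm10) was the build, and HTSeq 0.9.1, STAR 2.7.10a, Trimmomatic 0.39 and FastQC 0.11.9 were the tools, per the submitters' processing notes. Neither the annotation release nor a strand setting for HTSeq is stated (not given in the sources used here). Per the labels' protocols, libraries came from 100 ng of total RNA with a NEBNext Ultra II RNA kit. Exons of 13 of the 46 genes overlap exons on the opposite strand, and how reads there were counted is not given. The 5 summary lines were set apart, with 2.00 to 2.58% of reads on no gene and 3.66 to 4.03% ambiguous. GENCODE M21 gave symbols and positions, and it named 55227 identifiers and left 260 unnamed.

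Groups came from sample titles. Each cell type's 6 libraries were fitted alone, and the interaction and the comparison of cell types over all 12, in edgeR 4.0.16 (R 4.3.3) by quasi-likelihood F-tests, following the filterByExpr filter and TMM scaling. A call is a Benjamini-Hochberg adjusted p under 0.05 over all tested genes. Standard errors are the log2 change over the root of F. The coefficient of variation between replicates that edgeR estimated was 3.08% in Hepa1 and 2.45% in MEFs. Floors cover counting error only, while the standard errors also take in the variation among libraries. The fits were tested on simulated data with known changes. Alternatives were DESeq2 size factors, no scaling, DESeq2 1.42.0, limma-voom (limma 3.58.1), other count filters, a replicate block and leaving out each library. The members and lists were chosen with earlier results of these data known. Values per library are given for members called with a log2 change of at least 0.5 in either cell type or a called difference of at least 1, for the MiT/TFE genes and for Sqstm1, and among other pathway genes up to 4 per list, cell type and direction with the largest change and a mean of at least 1 CPM could be named. Promoters came from RefSeq and were searched by exact letters.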

Additional observations from a re-analysis of the deposited data

Results flagged for a closer look

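The response to ferroptotic medium differed between Hepa1 and MEFs for 35 of the 45 listed genes tested, each by the interaction over all 12 libraries at an adjusted p under 0.05 with edgeR, against 44.2% of all genes. Values are the log2 change in Hepa1 minus that in MEFs. Among membrane proteins they were -2.81 for Cd68, -0.78 for Mcoln1, -0.36 for Npc1, -0.28 for Lamp1, -0.16 for Lamp2 and 0.22 for Cd63. Among cathepsins they were 1.76 for Ctsh, -0.41 for Ctsd, -0.35 for Ctsa and -0.22 for Ctsz. Among hydrolases and activators they were -0.79 for Neu1, -0.77 for Gla, -0.36 for Gaa, -0.31 for Npc2, -0.13 for Asah1, 0.46 for Lipa, 0.40 for Gusb and 0.29 for Psap. The V-ATPase subunits stood at -0.38 for Atp6v1h, -0.22 for Atp6v1b2, -0.16 for Atp6v0d1 and -0.12 for Atp6v1a. Receptors and factors stood at -1.42 for Optn, -0.96 for Sqstm1 and -0.33 for Tfe3. ATG8 genes stood at 0.35 for Gabarapl1, 0.24 for Map1lc3b and -0.16 for Gabarap. Core autophagy genes stood at 0.55 for Wipi1, 0.52 for Atg5, 0.28 for Atg12, -0.39 for Atg7, -0.27 for Becn1, -0.24 for Atg16l1 and -0.18 for Ulk1.

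The calls for Asah1 and Atp6v1a were the ones of these 35 that changed when a library was left out. The value for Asah1 was -0.10 without Hepa1 ferroptotic replicate 1 (adjusted p = 0.11), and those of Atp6v1a are given in the report. The cells also differ by Bach1 genotype, which cannot be told apart from cell type.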

How the results depend on the processing

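With no scaling beyond total counts, members called higher in Hepa1 numbered 14 in place of 9, and the 7-base motif was found in 10 promoters in place of 6; the other counts over all 46 genes together stayed within 1.5 times under every setting run. Counts within a role moved more with no scaling: in Hepa1, 2 membrane proteins, 2 ATG8 genes and 2 listed V-ATPase subunits were higher in place of 0, 1 and 1, in MEFs 2 core autophagy genes were higher and 2 lower in place of 0 and 4, 1 ATG8 gene was higher in place of 0 and 0 receptors lower in place of 1, and between the cell types 3 ATG8 genes were higher and 0 lower in place of 1 and 4, and 1 membrane protein was lower in place of 2. Leaving out 1 library at a time gave 6 to 9 members higher and 21 to 23 lower in Hepa1, 18 to 21 higher and 18 to 19 lower in MEFs, 10 to 12 higher and 24 to 25 lower for the difference, and 21 to 22 higher and 22 lower between the cell types. Samples that share a replicate number did not deviate together (r from -0.0143 to 0.0366, with 3 of 6 closest to their own number). With the replicate block, 7 members were higher and 22 lower in Hepa1, and Atp6v0d1 (adjusted p = 0.0577), Nbr1 (0.0633) and Gabarapl1 (0.0668) lost their calls there; it gave 20 and 19 in MEFs, 10 and 25 for the difference, and 22 and 22 between the cell types.

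Some signs turned. Between the cell types with no scaling beyond total counts, Lamp1 was at 0.06, Cd63 at 0.53, Gla at 0.15, Map1lc3a at 0.35, Map1lc3b at 0.14 and Gabarapl2 at 0.07. Without that scaling, Asah1 and Atp6v1a were each at 0.02 in Hepa1 and Cd68 at 0.06 in MEFs, and limma-voom put Cd68 in MEFs at 0.01. The difference for Ctsl was 0 with no count filter. Leaving out 1 library turned values that were not called. In Hepa1 these ran from 0.00 to 0.03 for Lamp1, -0.03 to 0.04 for Gaa, 0.00 to 0.02 for Wipi1 and -0.05 to 0.01 for Atp6v1a. In MEFs they ran from -0.15 to 0.23 for Cd68 and 0.00 to 0.10 for Neu1. For the difference they ran from -0.05 to 0.02 for Ctsl, -0.04 to 0.01 for Ctsb, -0.04 to 0.03 for Hexa, -0.03 to 0.24 for Mitf and -0.01 to 0.14 for Gabarapl2, and for the cell types from -0.07 to 0.02 for Cd63. The cause was not tested.

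Of the 46 genes, Ctsk in Hepa1 and Ctss had too few reads to test. How reads in exons shared with a gene on the opposite strand were counted is not given.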
